A study of Mus musculus with 8 samples.

Results

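The *Myh3*-high spots are a group of muscle spots in spatial transcriptomics sections of mouse diaphragm at E18.5, shortly before birth, in which the embryonic myosin *Myh3* is high relative to the perinatal myosin *Myh8*. Spots with at least 1000 UMIs were taken as muscle where their muscle score, the mean log-normalized level of 9 genes of the sarcomere and its calcium release (*Acta1*, *Myl1*, *Mylpf*, *Tnnt3*, *Actn2*, *Des*, *Neb*, *Ttn* and *Ryr1*), exceeded the cut that Otsu's method set in each section. The members are those among the top 15% of muscle spots by UMIs of *Myh3* over UMIs of *Myh8* (1 added to each) that remained after the top 15% by the endplate genes *Chrna1*, *Ache* and *Ufsp1* and the top 15% by the myotendinous genes *Col22a1* and *Ankrd1* were left out. They are 170 of 3092 muscle spots in control 1 and 130 of 2199 in control 2, so 300 of 5291, among 12771 spots under tissue in the whole series. They were compared with the 2067 and 1443 other muscle spots, which are outside that top 15% and from which the same endplate and myotendinous spots were left out.

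The series holds 8 Visium sections, each cut flat through the diaphragm of 1 embryo. At E14.5 there are 3 control sections and 1 from a CaV1.1 KO, and at E18.5 there are 2 control sections, 1 from a β-cat cKO and 1 from a CaV1.1 KO. Control embryos had at least 1 working allele each of CaV1.1 and β-catenin, and which embryos carried a mutant allele, a floxed allele or Cre is not given in the sources used here. The KO embryos lack CaV1.1, the voltage sensor of excitation-contraction coupling, in the whole body, whereas the cKO embryo lost floxed β-catenin through HSA-Cre, which acts in skeletal muscle. A spot can hold several fibers together with the cells between them, so a lower level can come from fewer cells or from less RNA per cell, and these cannot be told apart. Controls 1 and 2 at E18.5 hold 82859104 and 69837233 UMIs over 3478 and 2527 spots under tissue. Their slides share the barcode layout, and 2153 barcodes occur in both sections.

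During myogenesis muscle fibers replace *Myh3* by *Myh8* and later by *Myh2*, *Myh1* and *Myh4* in fast fibers of type IIa, IIx and IIb. *Myh7*, the myosin of slow fibers, is already expressed beside *Myh3* at E14.5. New fibers form along older ones in fetal muscle and fibers lengthen at their ends, so spots of the same muscle can hold fibers of different age. *Csrp3* encodes the muscle LIM protein of the Z-disc, and *Peg10* is a paternally expressed imprinted gene of retrotransposon origin that is high in placenta and in embryonic tissues.

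The myosins that define or distinguish these spots are neighbors on chromosome 11, where *Myh3* (ENSMUSG00000020908, GRCm38 chr11:67078273-67102291), *Myh2* (ENSMUSG00000033196, GRCm38 chr11:67171027-67197517), *Myh4* (ENSMUSG00000057003, GRCm38 chr11:67237812-67260447) and *Myh8* (ENSMUSG00000055775, GRCm38 chr11:67277124-67308634) lie in this order and on the same strand. The 250 bases before the RefSeq start of the embryonic, the perinatal and the type IIb gene are shown because *Myh3* was high where *Myh8* and *Myh4* were low. They are the plus strand of GRCm38.p6 at chr11:67078050-67078299, chr11:67276874-67277123 and chr11:67237562-67237811, read 5′ to 3′, and the *Myh3* start used there lies inside the interval given for the gene. Capitals mark TATAAA and the E-box CAGCTG, searched on both strands.
Myh3: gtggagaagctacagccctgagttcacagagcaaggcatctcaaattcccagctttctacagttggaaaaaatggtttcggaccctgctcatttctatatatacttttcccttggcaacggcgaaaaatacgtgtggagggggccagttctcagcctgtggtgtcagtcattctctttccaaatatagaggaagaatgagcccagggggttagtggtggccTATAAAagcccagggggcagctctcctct
Myh8: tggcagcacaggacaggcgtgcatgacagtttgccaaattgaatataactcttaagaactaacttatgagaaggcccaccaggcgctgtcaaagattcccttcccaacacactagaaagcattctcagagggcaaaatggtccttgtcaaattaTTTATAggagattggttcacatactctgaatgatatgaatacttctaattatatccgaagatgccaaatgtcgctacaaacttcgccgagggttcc
Myh4: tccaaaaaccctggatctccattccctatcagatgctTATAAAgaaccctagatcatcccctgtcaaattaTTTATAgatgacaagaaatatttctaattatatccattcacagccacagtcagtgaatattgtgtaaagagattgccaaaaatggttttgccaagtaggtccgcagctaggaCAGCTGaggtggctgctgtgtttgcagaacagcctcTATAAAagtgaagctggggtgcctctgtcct
The window of *Myh4* holds 1 CAGCTG and 3 TATAAA, while those of *Myh3* and *Myh8* hold 1 TATAAA each and no CAGCTG. Among all 32851 such windows in the table, 4063 (12.4%) hold TATAAA and 4271 (13%) hold CAGCTG. These matches are a description of the letters and not of bound sites.

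The members were chosen by their UMIs of *Myh3* and *Myh8*, so these are given without a test. Levels are CPM, the UMIs of a gene in the summed spots of a group and section, scaled to a total of 1000000 UMIs. *Myh3* stood at 7709.6 and 6138 CPM against 3454 and 3080.5 in the other muscle spots of controls 1 and 2, and *Myh8* at 26152 and 25245 CPM against 36840.1 and 35679. The median ratio was 0.283 and 0.239 in the members and 0.0875 and 0.0844 in the other spots. The threshold lay at 0.203 and 0.185, and the spots just inside it had *Myh3* at 6480.3 and 5504 CPM against 5904 and 4982 in those just outside. *Csrp3* stood at 2014 and 1854 CPM just inside against 1712 and 1648 just outside.

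The members were muscle but somewhat poorer in sarcomere RNA. The median muscle score was 4.23 and 4.21 against 4.37 and 4.39 in the other muscle spots, with section thresholds of 3.79 and 3.58. After TMM scaling all 9 muscle genes were lower in the members of both sections, from *Actn2* (log2 fold change −0.05) to *Tnnt3* (−0.61), without a test, whereas in plain CPM *Actn2* and *Des* were slightly higher (3745 and 3805 CPM against 3532 and 3520.2 and 7910.3 and 7751 CPM against 7286 and 7636). The median UMIs per spot were slightly higher, 25432 and 29456 against 23000.0 and 27634. Fold changes of groups were fitted with TMM scaling, which puts them 0.13 and 0.17 below the plain log2 ratio of CPM in controls 1 and 2.

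The *Myh3*-high spots lay together. Of the muscle spots next to a member, 51.3% in control 1 and 54.9% in control 2 were members themselves, against 1.32% and 1.83% of those next to another muscle spot. The largest connected patch held 39 of 170 and 56 of 130 members and the next 29 and 22, while 25 and 21 members had no member beside them. The members were nearer to tissue outside muscle, at a median of 265 and 346 µm against 458 and 600.0 µm. Spots of a section are not replicates, so these positions are given per section and without a test.

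**Figure D1:**
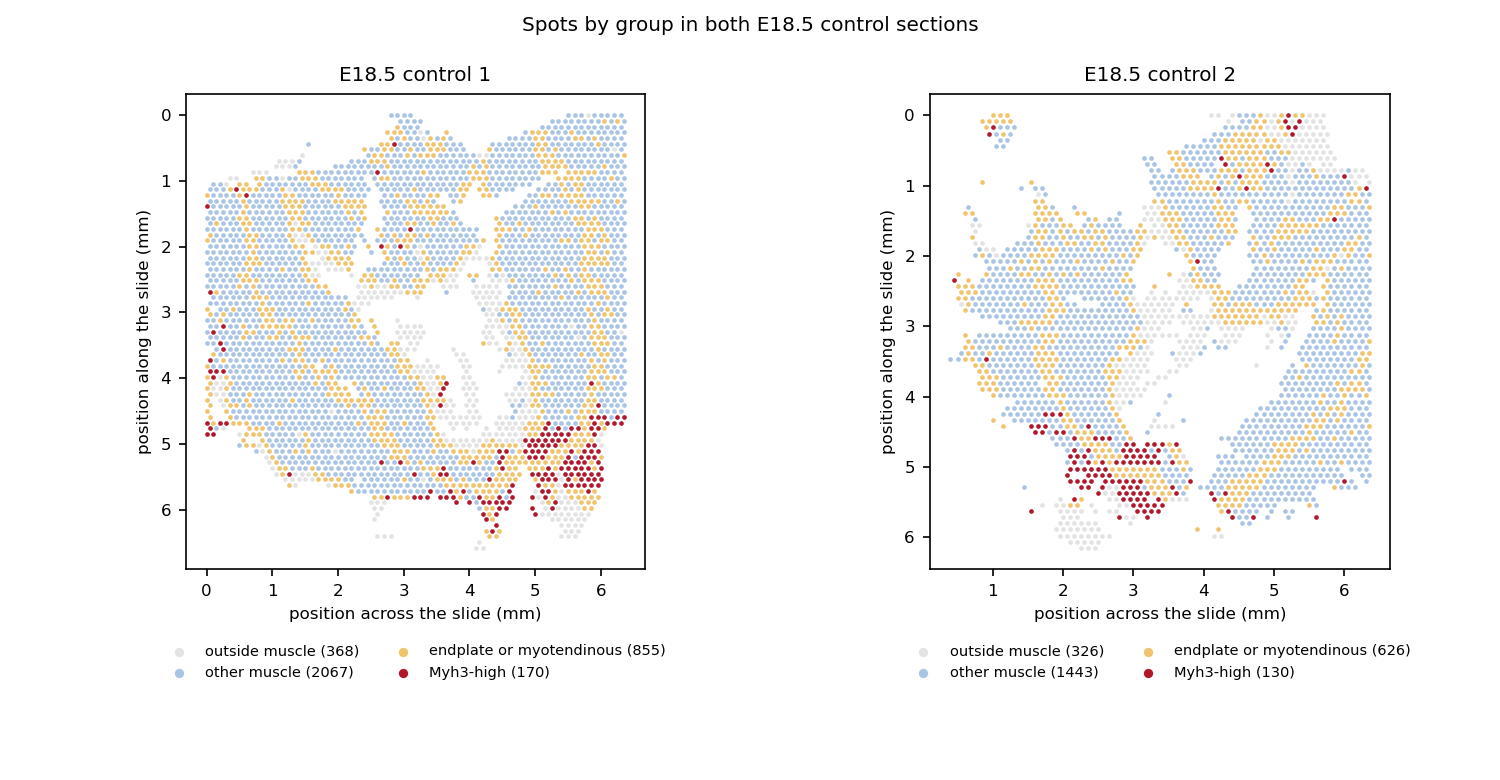
Position of every kept spot in both E18.5 control sections, in mm on the slide (1 dot per spot, colored by group). The 170 and 130 *Myh3*-high spots gather in patches, the largest of 39 and 56 spots, with 25 and 21 members alone.

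*Csrp3* (ENSMUSG00000030470, GRCm38 chr7:48830398-48848051), *Peg10* (ENSMUSG00000092035, GRCm38 chr6:4747306-4760517) and *Myh2* were named as markers of these spots with results of the same sections known, so at E18.5 their levels are a description. *Csrp3* stood at 2455 and 1983 CPM against 979 and 984 in the other muscle spots, 2.51 and 2.02 times as high. Its lowest, median and highest spot in control 1 were 6.78, 24.5 and 45.2 UMIs per 10000 in the members and 0, 8.83 and 33.9 in the other spots. In control 2 the same values were 2.29, 19.3 and 40.8 against 1.24, 8.98 and 27.9. Single spots overlap, but 98.8% and 95.4% of the members lay above the median of the other spots.

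*Peg10* stood at 429.8 and 319.8 CPM against 195 and 148, with 88.2% and 89.2% of the members above the median of the other spots. *Myh2*, the type IIa myosin, was low, at 60.4 and 90.6 CPM against 27.4 and 48.3, and had a UMI in 70.6% and 76.2% of the members and in 41.0% and 62.6% of the other spots. For all 3 genes the sums of both sections were higher in the members than in either section's other spots. The log2 fold changes were 1.02 for *Csrp3*, 0.98 for *Peg10* and 0.86 for *Myh2*, close to that of *Myh3* itself at 0.93. With only the muscle spots at or above the median muscle score of the section, where 111 and 64 members met 999 and 736 other spots, they were 0.84, 0.60 and 0.61.

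Endplate and myotendinous spots had lower sums of *Csrp3*, *Peg10* and *Myh2* than the members of the same section. *Myh3* reached 5784 and 5529 CPM at endplates, where *Csrp3* was 994 and 1060.0 CPM and *Peg10* 228 and 172 CPM, near the levels of the other muscle spots. In myotendinous spots *Csrp3* was 1462 and 1278 CPM. Even in the endplate spots whose ratio was in the top 15%, which had *Myh3* at 8401 and 7796 CPM and so above the members, *Csrp3* stood at 1459.7 and 1386 CPM. *Myh2* was 29.6 and 51.0 CPM at endplates and 40.9 and 63.0 CPM in myotendinous spots. Since these genes belong to the rule or the markers, no test was made.

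**Figure D2:**
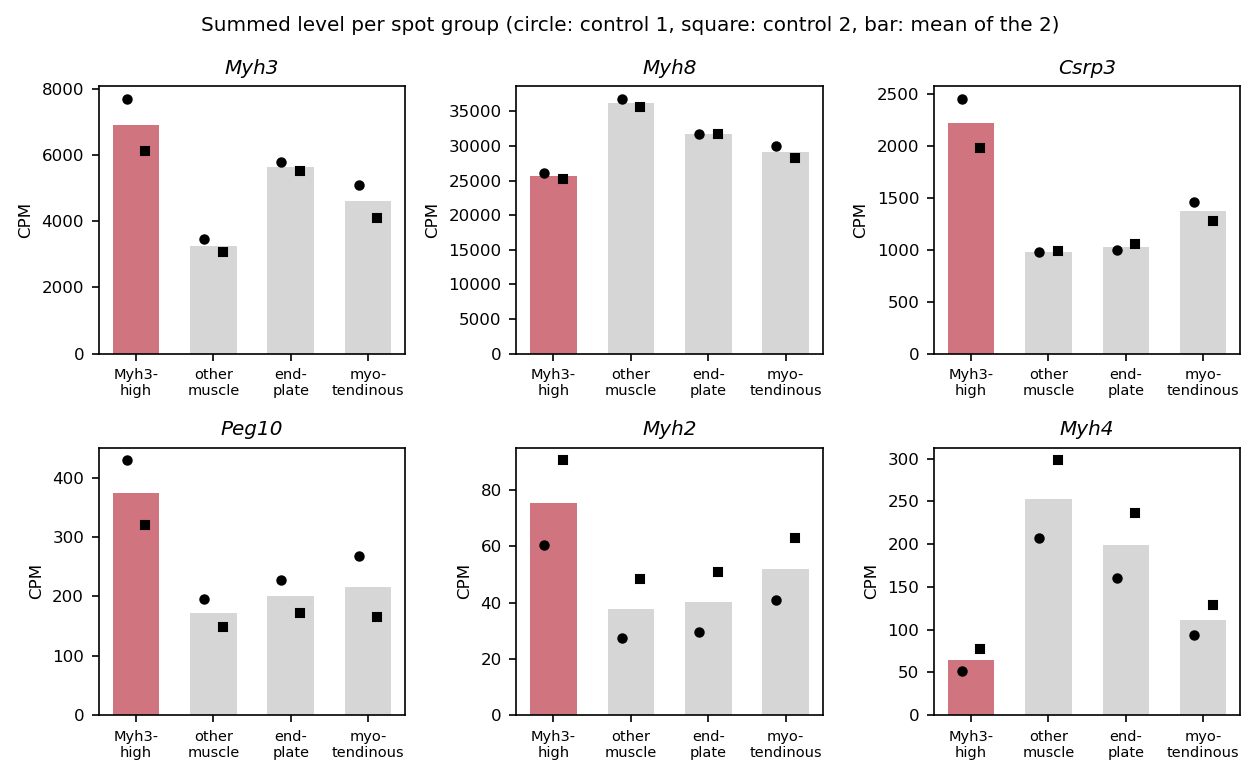
Summed CPM of 6 genes in 4 groups of muscle spots at E18.5 (circle control 1, square control 2, bar the mean of both). *Csrp3*, *Peg10* and *Myh2* are highest in the *Myh3*-high spots of each section and *Myh4* is lowest there.

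These levels followed the ratio through the whole muscle. Muscle spots without endplate and myotendinous spots were split into 5 bins of equal size by the ratio. From the lowest to the highest bin *Csrp3* went from 629.9 to 1810.0 CPM in control 1 and from 698 to 1688 in control 2, and *Peg10* from 147 to 318 and from 109.5 to 265. Both increased at every step in both sections. *Myh4* went from 335 to 81.6 CPM and from 411 to 125, decreasing at every step. *Myh2* increased at every step in control 2, whereas in control 1 bins 2, 3 and 4 did not rise in order (29.8, 28.7 and 26.2 CPM).

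**Figure D3:**
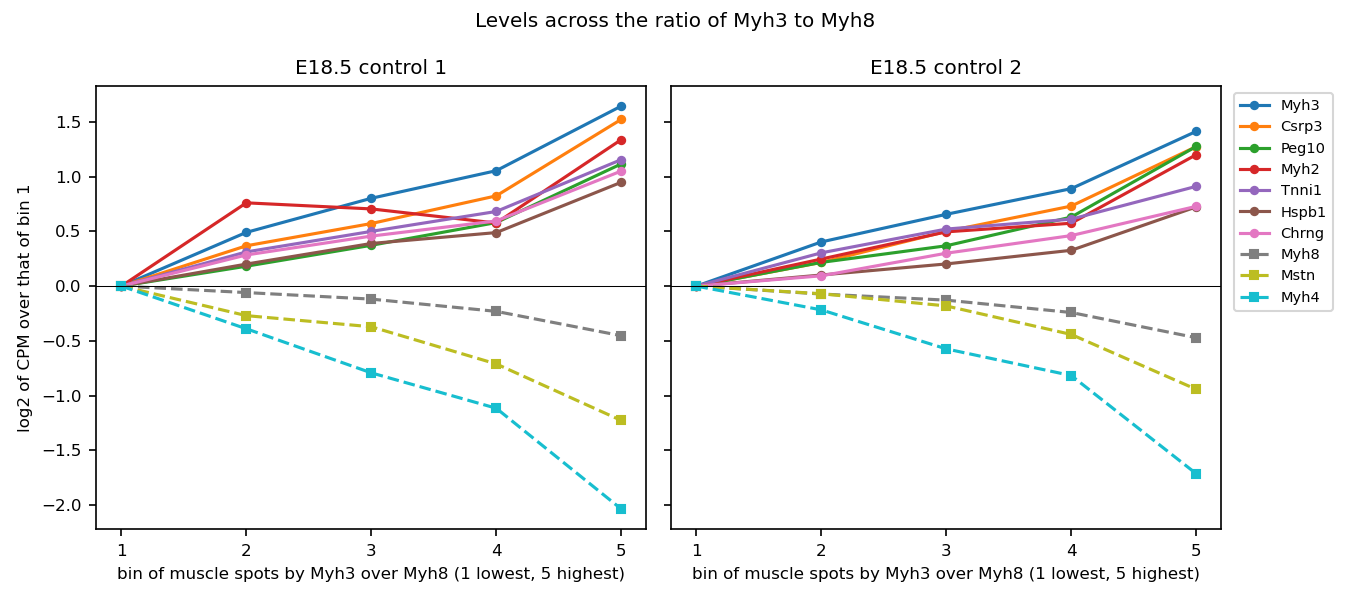
Log2 of the CPM of 10 genes over that in the lowest of 5 bins of muscle spots, against the bin by the ratio of *Myh3* to *Myh8*, for E18.5 controls 1 and 2. *Myh3*, *Myh8* and the ratio are tied by construction, and *Csrp3* runs closest below *Myh3* in control 1 while *Myh4* falls most in both sections.

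Over the 2237 and 1573 muscle spots in these bins, the genes most like the ratio were ranked by Pearson r between their log-normalized level and the log2 ratio, taking the lower r of both sections among 4862 genes. *Csrp3* came first with r = 0.72 and 0.62, before *Tnni1*, the slow troponin I that fetal fast muscle also expresses (0.59 and 0.46), the small heat shock protein gene *Hspb1* (0.57 and 0.46) and *Peg10* (0.45 and 0.46). *Dlk1*, *Hspb7*, *Jund*, *Cdkn1c*, *Tuba1a* and *Lmna* complete the 10, with a lower r from 0.34 to 0.42. At the other end stood *Mybpc2* (−0.62 and −0.64), *Atp2a1* (−0.61 and −0.61), *Ckm*, *Actn3*, *Pvalb*, *Pgam2*, *Myh4*, *Eno3* and *Myoz1*, all genes known from fast fibers or from glycolysis, beside *Tnnt3* of the rule. The spots share a library, their neighbors and their depth. The ratio had an r of 0.23 and 0.02 with log2 UMIs and of −0.35 and −0.39 with the muscle score.

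Within the members the levels also varied with position. In members with at least 4 members beside them *Csrp3* was 2579.6 and 2032 CPM and the parvalbumin gene *Pvalb* 21.0 and 50.5 CPM. In members with 0 members beside them *Csrp3* was 1694 and 1752 CPM and *Pvalb* 68.3 and 274 CPM. Single members therefore stood nearer to the other muscle spots on both genes. Conversely, other muscle spots with a member beside them had *Csrp3* at 1512 and 1415 CPM and *Pvalb* at 108 and 280.1 CPM, between the members and the other spots away from them (946 and 954 CPM for *Csrp3*, 233 and 567 for *Pvalb*). *Myh1*, the type IIx myosin, ran from 809 and 832 CPM in the core of the patches to 1425 and 1692 CPM in single members.

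All genes were then compared between the members and the other muscle spots. Of 13362 genes tested outside the rule and the markers, 773 (5.79%) were higher and 971 (7.27%) lower in the members, together 13.1%, at an edgeR adjusted p under 0.05, and the median log2 fold change of all of them was 0.01. These percentages are the background for the counts of the gene lists below. The fit rests on 2 sections with 1 residual degree of freedom and on a spread shared across genes. DESeq2 called 164 genes higher and 373 lower, and muscle spots at or above the median muscle score gave 168 and 197. Without the section as a block, which pairs the sums of an embryo, edgeR called 0 genes higher and 0 lower, with 532 and 902 at an unadjusted p under 0.05. The fits without control 1 or without control 2 named below also hold the 3 E14.5 control sections. The spread in them comes from those sections. Their reference is the fit of all 5 control sections, which called 379 genes higher and 938 lower at E18.5.

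Genes of adult fast fibers were low in the *Myh3*-high spots. All 16 of 16 tested fell, with a median log2 fold change of −0.57, and 13 of 16 fell also among spots at or above the median muscle score. Without control 1 and without control 2, 14 and 9 of them were called lower. *Pvalb*, a calcium buffer of the fastest fibers, had the largest decrease of all named genes, with 40.3 and 106 CPM against 226 and 548 in the other spots of controls 1 and 2 (log2 fold change of −2.57 with an SE of 0.08, edgeR adjusted p = 9.8e-15). *Myh4* followed with 52.1 and 77.0 CPM against 207 and 298 (log2 fold change of −2.12 with an SE of 0.08, edgeR adjusted p = 1.2e-13). The level of *Pvalb* itself differed between the sections. *Mybpc2*, the fast myosin-binding protein C, fell from 986 and 1198 to 465 and 557 CPM, and *Myoz3*, a Z-disc protein of fast fibers, from 76.5 and 76.9 to 41.7 and 42.4 CPM, with log2 fold changes of −1.24 (edgeR adjusted p = 4.5e-10) and −1.02 (edgeR adjusted p = 7.8e-08). *Myh1* fell by 0.61 on the log2 scale in the fit of both sections, but by 0.25 in control 1 and 0.96 in control 2. *Myh2* was the exception among the adult fast myosins, being higher in the members.

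Most tested genes of energy metabolism were lower. In the list of glycolysis and creatine kinase genes 13 of 14 fell and none rose (median −0.51), with *Gapdh* at −0.48 and not called. The subunits *Phkg1* and *Phka1* of phosphorylase kinase, which starts glycogen breakdown, changed by −1.07 and −0.82, and *Gpd1* and *Pgam2* by −0.60 and −0.58. Of the oxidative genes 22 of 24 fell and none rose (median −0.44). *Mb*, the oxygen store myoglobin, stood at 48.8 and 85.7 CPM against 77.4 and 144 (log2 fold change of −0.86 with an SE of 0.08, edgeR adjusted p = 2.1e-07). The muscle isoforms *Cox8b* and *Cox7a1* of cytochrome c oxidase and the fatty acid transporter *Cd36* changed by −0.78, −0.74 and −0.74. Among spots at or above the median muscle score 9 of 14 and 8 of 24 of both lists fell, while 1 oxidative gene rose. Without control 1 and without control 2, 10 and 7 glycolytic and 15 and 8 oxidative genes were called lower. Among the muscle-rich spots *Mb* was at −0.18 and *Gpd1* at −0.17, and neither was called.

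Of 20 excitation-contraction coupling genes 10 fell and none rose. They include *Cacna1s*, which encodes CaV1.1 itself (42.8 and 48.5 CPM against 63.7 and 65.0, log2 fold change of −0.65 with an SE of 0.09, edgeR adjusted p = 2.6e-05), the calcium pump *Atp2a1* (−0.61), triadin *Trdn* (−0.56) and the junctophilin *Jph1* (−0.49). *Stac3* and *Cacnb1*, which belong to the CaV1.1 complex, were at 0.06 and −0.02 and were not called. In spots at or above the median muscle score 3 of 20 fell and 2 rose, and without control 1 and without control 2, 6 and 2 were called lower.

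Several further genes outside the contractile apparatus had large decreases. *Mstn* (ENSMUSG00000026100, GRCm38 chr1:53061640-53068079), which encodes the muscle growth inhibitor myostatin, stood at 64.8 and 65.2 CPM against 156 and 154 (log2 fold change of −1.40 with an SE of 0.08, edgeR adjusted p = 8.5e-11), and its values in both sections were almost the same. *Ddit4l*, an inhibitor of mTOR signaling, stood at 39.1 and 57.0 CPM against 119.6 and 143 (log2 fold change −1.61). *Chrna9*, a nicotinic receptor subunit, *Abcd2*, a peroxisomal fatty acid transporter, *Gadd45a*, a stress gene that denervation induces in adult muscle, and *Lpin1*, a phosphatidate phosphatase, changed by −1.20, −1.05, −0.97 and −0.97. *Tst*, a mitochondrial sulfurtransferase, fell to 24.8 and 19.3 CPM from 39.0 and 40.9. Of the 12 genes with the largest decreases, 11 were called with the same direction among spots at or above the median muscle score, and all 12 by DESeq2. Of 11 denervation and inactivity genes, 6 fell, among them *Mstn*, *Gadd45a*, and the ubiquitin ligases *Fbxo32* and *Trim63* (−0.85 and −0.54). The 2 that rose, *Chrng* and *Myog*, are also genes of developing muscle. Among spots at or above the median muscle score 2 of this list fell and 1 rose, and *Fbxo32* (−0.60) and *Myog* (0.11) were not called. With control 1 left out 3 fell and with control 2 left out 2, and none rose in either.

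Developmental isoforms were higher in part. Of 12 tested 7 rose and 2 fell (median 0.32). *Tnni1* stood at 1996 and 1726 CPM against 1027 and 1185 (log2 fold change of 0.60 with an SE of 0.09, edgeR adjusted p = 1.1e-04), and the light chains *Myl6b* and *Myl4*, the latter of embryonic muscle and atria, rose by 0.59 and 0.32. *Chrng*, the fetal subunit of the acetylcholine receptor, rose to 125 and 101 CPM from 67.1 and 58.8 (log2 fold change of 0.70 with an SE of 0.07, edgeR adjusted p = 1.7e-06). *Nes*, an intermediate filament gene of immature fibers, rose by 0.50. By contrast *Tnnt2*, the cardiac and embryonic troponin T, was at 0.12 and was not called, with 0.37 in control 1 and −0.13 in control 2. *Mybph*, a myosin-binding protein, fell from 365 and 312 to 222 and 170.2 CPM. In spots at or above the median muscle score 7 of 12 rose and 1 fell, whereas without control 1 and without control 2 only 0 and 2 were called higher.

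Slow fiber genes showed no common direction. Of 13 tested 2 rose, *Tnni1* and the slow troponin C *Tnnc1* (0.38), and 2 fell, the light chain *Myl3* (−0.36) and *Mybpc1* (−0.26). *Tnnc1* was at 0.55 in control 1 and 0.21 in control 2, and *Myl3* at −0.16 and −0.56. *Myh7* was at 2976 and 3137 CPM against 2160.4 and 3021 (log2 fold change 0.11) and was not called. Among spots at or above the median muscle score, however, 8 of 13 slow genes rose and none fell, and *Myl3* was called in the opposite direction at 0.35 (edgeR adjusted p = 6.2e-06). *Mybpc1* was at 0.02 there.

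Beside *Csrp3*, 4 of 23 genes of myofibril assembly and stretch response rose and 3 fell. *Hspb1* and *Hspb7*, which encode small heat shock proteins of muscle, stood at 1402 and 1624 CPM against 777 and 979.9 and at 2217 and 2344 CPM against 1458 and 1654 and rose by 0.64 (edgeR adjusted p = 8.6e-06) and 0.40 (edgeR adjusted p = 0.0015) on the log2 scale. *Ankrd2*, an ankyrin repeat protein that responds to stretch, rose by 0.50, with 0.77 in control 1 and 0.23 in control 2, and filamin C *Flnc* by 0.28. *Myot*, *Fhl2* and *Tmod1* fell by 0.33, 0.27 and 0.23 on the log2 scale. *Nrap* and *Xirp1*, actin-binding proteins of myofibril assembly, were at 0.21 and 0.10 and not called. Among spots at or above the median muscle score 7 of 23 rose and none fell.

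Of 17 genes of myogenic commitment and fusion 5 rose and none fell. *Mymx*, the fusion peptide myomixer, stood at 51.4 and 45.9 CPM against 30.6 and 29.0 (log2 fold change of 0.56 with an SE of 0.10, edgeR adjusted p = 3.2e-04). *Il17b*, a cytokine gene, and *Megf10*, a receptor of satellite cells, rose by 0.80 and 0.38. *Cdkn1c*, an imprinted inhibitor of the cell cycle, and *Myog*, the factor of terminal differentiation, rose by 0.32 and 0.28. *Megf10* was at 0.45 in control 1 and 0.26 in control 2, and *Myog* at 0.44 and 0.12. *Mymk*, the partner of *Mymx* in fusion, was at −0.17, and the progenitor genes *Pax7* and *Myf5* were at −0.09 and −0.0039, and none of these 3 was called. Of 25 cell cycle genes 14 rose and none fell (median 0.37), among them *Birc5*, *Ccnb2*, *Tyms* and *Gins2* (0.48, 0.47, 0.50 and 0.46), all low, with *Birc5* at 29.2 and 24.9 CPM against 18.04 and 17.0. DESeq2 called 1 of them, leaving out control 1 or control 2 left 1 and 0, and among spots at or above the median muscle score 1 of 17 myogenic genes and 0 of 25 cell cycle genes rose.

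Most other imprinted genes were not called. Of the 18 tested beside *Peg10* 3 rose, *Cdkn1c*, *Plagl1* (0.39) and *Nnat* (0.60), and 1 fell, *Gnas* (−0.26, edgeR adjusted p = 0.04997, just under the threshold). *Igf2*, *Dlk1*, *Mest* and *Peg3*, growth genes that are abundant in fetal muscle, were at −0.26, 0.16, 0.16 and 0.16 and were not called. *Sgce*, the neighbor of *Peg10* on chromosome 6, was at 0.09. Among spots at or above the median muscle score *Plagl1* (0.04), *Nnat* (0.48) and *Gnas* (−0.13) were not called, and 1 of 18 rose and 0 fell. With control 1 left out 0 of this list were higher and 0 lower, and with control 2 left out 0 and 0.

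Some endplate genes outside the rule were higher in the members although endplate spots had been left out. Of 13 tested 4 rose, *Chrng*, the subunit *Chrnd* (81.9 and 74.4 CPM against 45.3 and 45.4, log2 fold change of 0.64 with an SE of 0.08, edgeR adjusted p = 1.7e-05), *Etv5*, an ETS factor of endplate nuclei (0.56), and *Dok7* (0.45), and 2 fell, *Lrtm1* (−0.53) and *Chrnb1* (−0.30). *Musk*, the receptor of the agrin pathway, was at −0.03. Among spots at or above the median muscle score 2 of 13 rose and 0 fell. With control 1 left out 0 of this list were higher and 2 lower, and with control 2 left out 0 and 0. Among the muscle-rich spots *Etv5* (0.37) and *Lrtm1* (−0.22) were not called and *Chrng* was at 0.30. Of the muscle spots next to a member, 16.4% and 15.2% were among the top 15% by endplate genes, against 8.22% and 8.36% of those next to the other spots, and the part of that in the calls was not tested. Compared with all other muscle spots, endplates included, *Etv5* was at −0.24 and not called, *Uchl1* was at −0.16 and not called, and *Ccn2*, higher in the main comparison, was called lower, at −0.35. Of 9 myotendinous genes 2 rose, *Uchl1* (0.67) and *Thbs4* (0.52), and 3 fell, the neuronal nitric oxide synthase *Nos1* (−0.94), the kinase *Pak1* (−0.63) and the retinoid receptor *Rxrg* (−0.46). *Uchl1* was at 0.93 in control 1 and 0.39 in control 2, and of the muscle spots next to a member 17.4% and 7.11% were in the top 15% by myotendinous genes, against 7.91% and 7.34% of those next to the other spots. The part of that in the calls was not tested. In this list, among spots at or above the median muscle score 3 of 9 rose and 1 fell. With control 1 left out 0 of this list were higher and 1 lower, and with control 2 left out 1 and 1. Of 12 serum response and Yap targets 5 rose and none fell, among them *Atf3* (0.88), *Fos* (0.66) and *Ccn2* (0.36). All 3 lost their call in spots at or above the median muscle score, at 0.44, 0.45 and 0.26, where 2 of 12 rose, and 0 and 2 rose without control 1 and without control 2.

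The 12 genes with the largest increases, ranked without the genes of the rule and the 3 markers, ranged from 1.72 for *Apoa1* to 0.82 for *Krt7*. Of the 12 calls 9 were made with control 1 left out, 4 with control 2 left out and 9 by DESeq2. *C1qtnf3*, a secreted C1q family protein of cartilage and connective tissue, stood at 185 and 154 CPM against 69.5 and 67.7 (log2 fold change of 1.16 with an SE of 0.07, edgeR adjusted p = 8.3e-10), and *Cthrc1*, a secreted protein of matrix-forming fibroblasts, at 195 and 205 CPM against 100.2 and 100.1 (log2 fold change of 0.85 with an SE of 0.07, edgeR adjusted p = 3.2e-08). The matricellular gene *Ccn3*, the collagen *Col5a3*, the microfibril gene *Mfap5*, the annexin *Anxa1*, the calcium-binding protein gene *S100a6* and the stress factor *Atf3* rose by 1.08, 1.08, 0.84, 1.098, 0.93 and 0.88. *Msln* and *Krt7*, genes of the mesothelium that covers the diaphragm, were higher mainly in control 2, at 141 against 57.2 CPM and 104 against 45.6, with 16.7 against 14.6 and 14.8 against 10.9 in control 1. *Apoa1* and *Trf*, which the liver makes, were high in control 1, with 152 and 1.03 CPM against 41.6 and 0.465 for *Apoa1* and 243 and 23.6 CPM against 73.1 and 13.4 for *Trf*. Of these 12 genes only *Ccn3* was called among spots at or above the median muscle score (0.35, edgeR adjusted p = 0.046), where *Msln*, *Krt7* and *Cthrc1* were at −0.55, −0.28 and −0.01. With members ranked by *Myh3* alone *Msln* and *Krt7* were called lower, at −0.34 and −0.50.

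**Figure D4:**
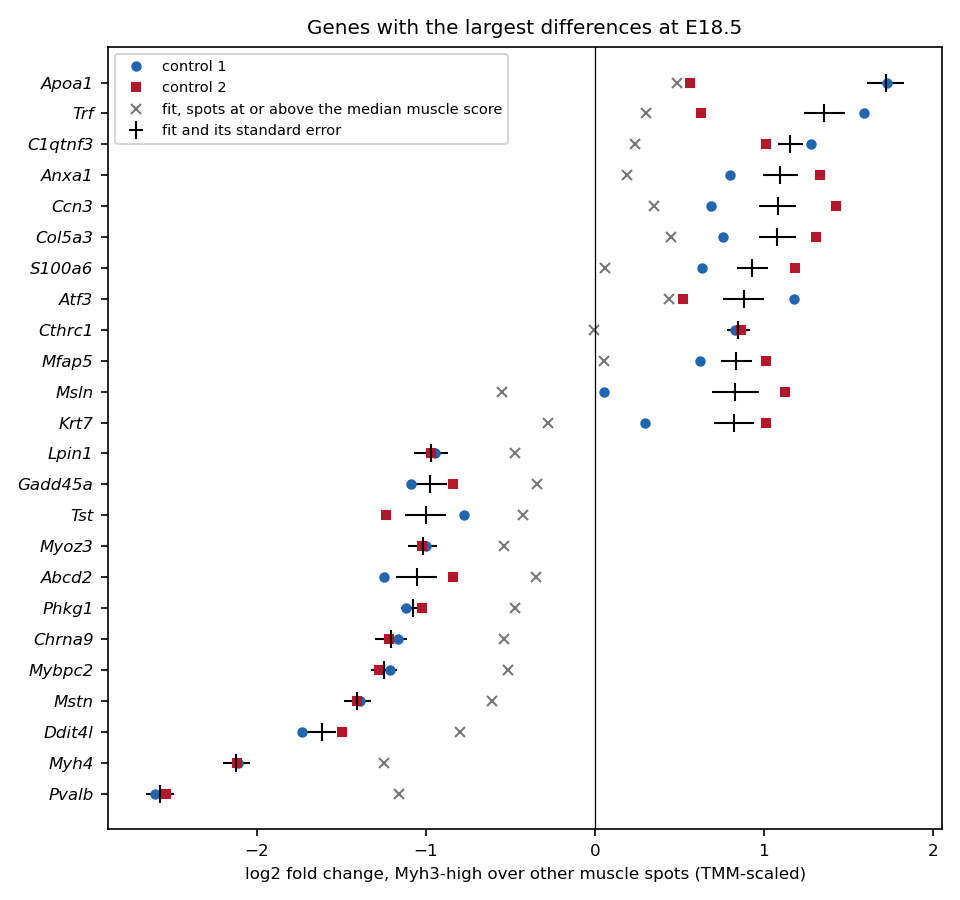
Log2 fold change of the 12 genes with the largest increases and the 12 with the largest decreases at E18.5 (bar and line: fit and its standard error, blue and red: controls 1 and 2, cross: fit on spots at or above the median muscle score, with members chosen anew among them). The decreases, led by *Pvalb* at −2.57 and *Myh4* at −2.12, have the same sign in both sections and, at a smaller size, among the muscle-rich spots, where the increases lie between −0.55 and 0.49.

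Some markers of other cell types were called higher in the members, and most endothelial markers were called lower. All 5 of 5 hepatocyte genes rose, with a summed level of 1411 and 1.03 CPM against 366 and 0.661, led by *Alb* in control 1. In control 2 *Alb*, *Ahsg*, *Afp* and *Ttr* were at 0 in the members, which allows up to 3 UMIs of 3895752, so the liver signal is that of control 1. Without spots with more than 10 liver UMIs per 10000, which left 142 and 130 members, 821 genes were higher and 1002 lower, and the 12 largest increases and 12 largest decreases were called in the same direction, but *Apoa1* went from 1.72 to 0.68 and *Trf* from 1.36 to 0.60. Of the fibroblast genes 7 of 8 rose, with a summed level of 13003 and 21452 CPM against 9722 and 12582 and *Col1a1* most abundant, and of the tendon genes 3 of 8 (520.1 and 611 CPM against 365 and 453, *Thbs4* most abundant). Mesothelium genes rose in 3 of 5 (46.3 and 296 CPM against 41.7 and 140.3, *Msln* most abundant) and macrophage genes in 2 of 6 (187 and 294 CPM against 157 and 181, led by *Mrc1* in control 1 and *C1qa* in control 2). The part of these cell types in the result was not tested. By contrast 6 of 7 endothelial genes fell (630.3 and 674 CPM against 853 and 819, *Fabp4* most abundant).

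The remaining lists gave few calls. Erythrocyte genes fell in 2 of 5 (774 and 453 CPM against 697 and 746, *Hbb-bs* most abundant). Smooth muscle genes had 1 higher and 1 lower of 5 (337 and 369 CPM against 303 and 307, *Acta2* most abundant). None was called of 4 cartilage genes (968 and 133 CPM against 925 and 31.8, *Col2a1* most abundant, *Matn1* at 0 in the members) and of 1 adipocyte gene (3.94 and 5.90 CPM against 3.68 and 4.75, *Pparg* most abundant, *Adipoq* and *Plin1* at 0 in the members of both sections). Of 3 progenitor genes 1 rose (72.0 and 70.8 CPM against 56.5 and 61.6, with *Megf10* most abundant in the members). In spots at or above the median muscle score 0 of 8 fibroblast genes, 0 of 5 mesothelium genes and 1 of 8 tendon genes rose. With members chosen anew in those spots *Csrp3* was at 0.84, *Pvalb* at −1.16 and *Myh4* at −1.25, smaller in size than the 1.02, −2.57 and −2.12 over all spots.

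The members were also set against endplate and myotendinous spots, comparisons that were added after the values had been seen and that use the same member sums. Against endplate spots 516 (4.24%) of 12156 genes were higher and 596 (4.90%) lower (9.15% either way), and against myotendinous spots 770 (6.33%) and 704 (5.79%) of 12157 (12.1% either way). Adult fast genes fell in 8 of 16 against endplates and in 5 of 16 against myotendinous spots, where 1 rose. Glycolysis and creatine kinase genes fell in 4 of 14 against endplates, whereas against myotendinous spots 4 rose and 0 fell. Oxidative genes had 1 higher and 5 lower of 24 against endplates, and 6 higher and 1 lower against myotendinous spots. Of 20 excitation-contraction coupling genes 1 rose and 1 fell against endplates, and 5 rose and 5 fell against myotendinous spots. *Myh4* was lower than at endplates by a log2 fold change of −1.67 and *Mstn* of −0.76. Slow genes rose in 10 of 13 against myotendinous and in 3 of 13 against endplate spots, and assembly genes in 8 and 6 of 23. Lower were 1 assembly gene against myotendinous spots and 1 slow gene against endplates, *Myl3* (−0.32). Developmental isoforms were higher in 3 and lower in 5 of 12 against endplates, with *Chrng* at −0.53, and higher in 5 and lower in 3 of 12 against myotendinous spots. Of 25 cell cycle genes 0 were higher or lower than at endplates and 3 were higher than in myotendinous spots. Endplate genes outside the rule were lower than at endplates in 11 of 13 and tendon genes lower than in myotendinous spots in 8 of 8. The endplate and myotendinous spots were chosen by genes of these sites, and the members by leaving those spots out. Both counts, and the lower *Chrng* than at endplates, are therefore largely built into the choice of spots and are only a description.

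The same rule was applied to the 3 control sections at E14.5, which had no part in choosing the E18.5 members, so that *Csrp3*, *Peg10* and *Myh2* could be tested there. It gave 42, 42 and 52 members against 345, 361 and 359 other muscle spots, with median UMIs per spot of 24684, 44042 and 19238 against 19121, 53225 and 22719. The median ratio of *Myh3* to *Myh8* was 1.09, 1.12 and 1.16 in the other spots. *Csrp3* did not separate the groups, with 483, 284 and 307 CPM in the members of controls 1, 2 and 3 and 481, 329 and 329 in the other spots (log2 fold change −0.14, SE 0.07, edgeR adjusted p = 0.23). *Peg10* was lower in the members in 3 of 3 sections, at 501, 307 and 338 against 526, 406 and 440.3 CPM (log2 fold change −0.32, SE 0.08, edgeR adjusted p = 0.011), although the ranges of both groups overlap across sections. It was not called where spots were ranked by *Myh3* alone (−0.0258), among spots at or above the median muscle score (−0.0398) or without the section as a block (−0.30). For *Csrp3* the direction was not stable, with 0.31 when ranked by *Myh3* alone and 0.26 among spots at or above the median muscle score, neither called. *Myh2* was near 0, at 0.694, 0.555 and 0 against 0.737, 0.829 and 0.622 CPM, and too low to be tested.

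At E14.5 most muscle lists had more genes lower than higher in the members. The median muscle score was 2.77, 2.51 and 2.65 in the members of controls 1, 2 and 3 against 2.99, 2.77 and 2.91 in the other spots. The part of that in the calls was not tested. Of 12149 genes tested 873 (7.19%) were higher and 840 (6.91%) lower, together 14.1%, with a median of −0.00017. Adult fast genes fell in 14 of 16 and glycolytic genes in 11 of 13. Developmental isoforms fell in 5 of 12, myogenic genes in 10 of 17 and endplate genes in 9 of 12, and in the first 2 of these lists none rose. Oxidative genes fell in 15 of 24, excitation-contraction coupling genes in 13 of 20, slow genes in 9 of 13 and assembly genes in 13 of 24, and none of these rose. Fibroblast genes rose in 6 of 8 and fell in 1. Tendon genes rose in 7 of 8, with *Thbs4* at a log2 fold change of 2.04, and of the muscle spots next to a member 26.6%, 47.3% and 30.1% were in the top 15% by myotendinous genes, against 10.2%, 10.0% and 11.8% of those next to the other spots. Of the same spots 32.2%, 22.8% and 28.8% were members themselves, against 3.23%, 2.24% and 4.28% next to the other spots. Ranking by *Myh3* alone left 27 genes higher and 14 lower, and spots at or above the median muscle score left 18 and 8.

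The difference between the stages was tested in a fit of all 5 control sections, in which 391 (2.99%) of 13059 genes had a higher and 482 (3.69%) a lower log2 fold change at E18.5 than at E14.5, 6.69% in either direction. For the markers, which were chosen on the E18.5 values that enter this difference, it is given without a test, as 1.11 for *Csrp3*, 1.25 for *Peg10* and 1.52 for *Myh2*, the last with 1, 1 and 0 UMIs in the E14.5 members. Genes named for their change at E18.5 are likewise more likely to differ here than genes at large, and their values are also given without a test. The difference was 1.11 for *Tnni1*, 1.14 for *Hspb1* and 1.63 for *Chrng*, each higher in the members at E18.5 and lower at E14.5 in every control section. *Myh4* was low in the members of both stages (log2 fold change −2.12 at E18.5 and −1.71 at E14.5), with a difference of −0.44 in the joint fit.

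In the mutants the rule gave 40 members of 491 muscle spots in the KO at E14.5, 59 of 813 in the KO at E18.5 and 83 of 1577 in the cKO. Each is 1 section without a replicate, so values are given with exact Poisson 95% intervals, which cover counting error only. The members of the KO at E14.5 were shallow, with a median of 5194 UMIs per spot against 30564 in its other muscle spots, while the medians were 13720.0 against 20155 in the KO at E18.5 and 22749 against 31283 in the cKO. *Csrp3* in the cKO stood at 1683 CPM (95% interval 1626 to 1742) in the members and 1231 CPM (95% interval 1219 to 1243) in the other muscle spots. In the KO at E18.5 it was scarce, at 111 CPM (95% interval 92.0 to 134) against 69.4 CPM (95% interval 64.6 to 74.5). *Peg10* was 245 CPM (95% interval 223 to 268) against 184 CPM (95% interval 179 to 188) in the cKO and 156 CPM (95% interval 133 to 182) against 173 CPM (95% interval 166 to 181) in the KO, where the intervals overlap. *Myh2* was 64.3 CPM (95% interval 49.8 to 81.7) against 57.8 CPM (95% interval 53.4 to 62.4) in the KO, and in the cKO 4.61 CPM (95% interval 2.11 to 8.75) against 9.67 CPM (95% interval 8.64 to 10.8), so only 9 UMIs were behind the former.

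*Myh4* was lower in the members in all 3 mutant sections. It was 764 CPM (95% interval 712 to 819) against 1385 CPM (95% interval 1363 to 1407) in the KO at E18.5, 23.6 CPM (95% interval 17.2 to 31.4) against 66.3 CPM (95% interval 63.6 to 69.2) in the cKO, and 3.96 CPM (95% interval 1.08 to 10.1) against 15.3 CPM (95% interval 13.3 to 17.4) in the KO at E14.5. In the shallow members of the KO at E14.5 *Csrp3* was at 74.2 CPM (95% interval 58.3 to 93.0) against 122 CPM (95% interval 117 to 128) and *Peg10* at 399 CPM (95% interval 361 to 439) against 414 CPM (95% interval 404 to 425). Of the muscle spots next to a member at E18.5, 22.5% were members in the KO and 35.1% in the cKO, against 4.17% and 1.59% of those next to the other muscle spots, and the largest patch held 5 and 22 spots.

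**Figure D5:**
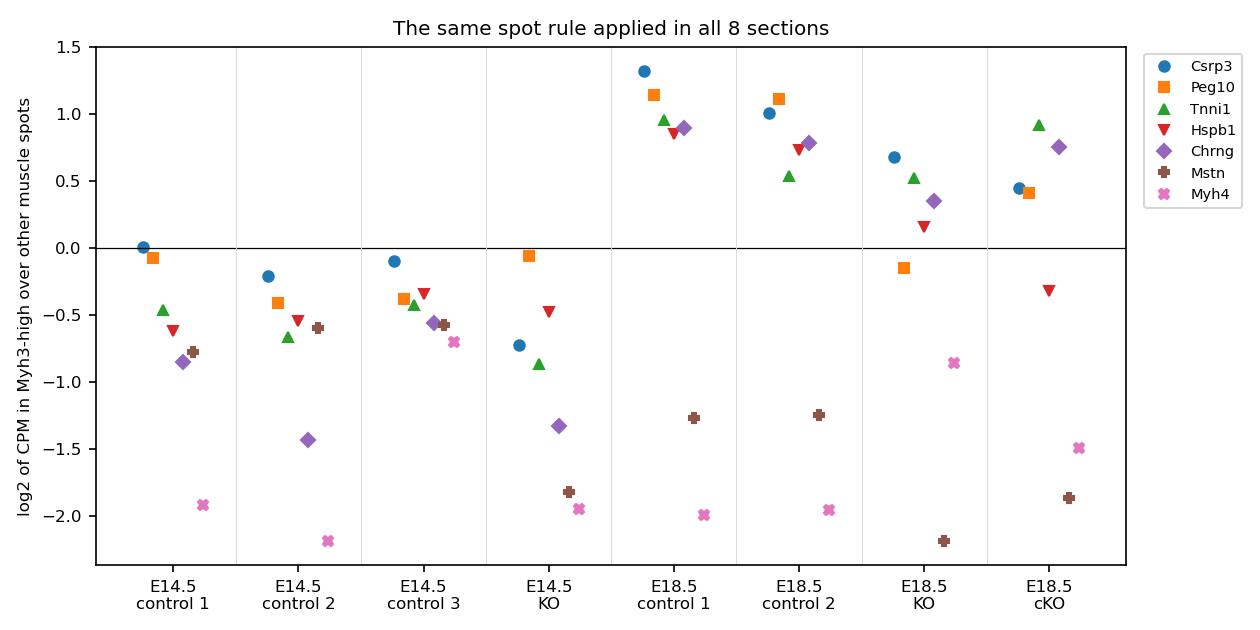
Log2 of the plain CPM ratio of *Myh3*-high over other muscle spots for 7 genes in all 8 sections, with the rule applied in each section on its own. *Csrp3*, *Peg10*, *Tnni1*, *Hspb1* and *Chrng* lie above 0 in both E18.5 controls and near or below 0 in the E14.5 controls, whereas *Mstn* and *Myh4* lie below 0 in all sections.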

How the data were processed

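The deposited UMI counts per gene and spot (10x Visium, FFPE, mouse probe set, 19465 genes) were made by the authors with Space Ranger on mm10, version 2.0.1 in 5 sections and 2.0.0 in 3 sections at E14.5 per the file headers, and are not normalized. Genes without a probe are not seen. Counts were summed per section and group of spots, since spots are not replicates. Sums were tested with edgeR 4.0.16 after filterByExpr and TMM scaling, by its quasi-likelihood method with the section as block, because both sums of a section come from 1 embryo, and p-values were adjusted over all genes by Benjamini and Hochberg. P-values measure the spread between these sections only. The SE is the log2 fold change over the square root of F. DESeq2 1.42.0, other rankings, shares, spot filters and scalings were alternatives. The members and gene lists were chosen with earlier results of these data known. The 16 genes of the rule and *Csrp3*, *Peg10* and *Myh2* were left out of tests and counts in the E18.5 comparisons, and the 16 alone in those at E14.5 and between stages. Named by rule were the 12 largest changes each way (called, mean log2 CPM of at least 5, same sign in both sections) and up to 4 called genes per list. Others were chosen after their values were seen. Positions and promoters are from RefSeq (GRCm38.p6). Images and the deposited Moran's I scores were not used here, and a list of Schwann cell genes and a measure of position are not reported here.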

Additional observations from a re-analysis of the deposited data

Results flagged for a closer look

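In the fit of all 5 control sections, the difference between the members and the other muscle spots was itself different at E18.5 and at E14.5 for 24 of the 67 named genes (edgeR adjusted p under 0.05), against 6.69% of all genes tested. The named genes had been picked for their change at E18.5, which favors such a difference, so that count is a description. The values are the log2 fold change at E18.5 minus that at E14.5, both from that joint fit. Among the markers, which were also chosen on E18.5 values and get no test, it was 1.11 for *Csrp3* (0.97 at E18.5 and −0.15 at E14.5) and 1.25 for *Peg10* (0.93 and −0.33).

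Genes above 0 at E18.5 and below 0 at E14.5 gave differences of 1.63 for *Chrng*, 1.11 for *Tnni1*, 0.43 for *Tnnc1*, 1.14 for *Hspb1*, 1.11 for *Hspb7*, 1.03 for *Mymx*, 0.59 for *Megf10*, 0.79 for *Cdkn1c*, 0.81 for *Myog*, 0.59 for *Ccnb2*, 1.42 for *Chrnd* and 0.87 for *Etv5*. The first of them, *Chrng*, had the largest positive difference of the named genes (0.64 against −0.98). Genes below 0 at E18.5 and above 0 at E14.5 gave −1.13 for *Abcd2*, −1.59 for *Lpin1*, −0.95 for *Phka1*, −1.12 for *Mb* and −1.58 for *Fbxo32*. Genes below 0 at both stages were lower at E18.5 by differences of −1.94 for *Pvalb*, −0.75 for *Mstn*, −0.72 for *Gadd45a* and −0.48 for *Jph1*, and *Myot* was less low at E18.5, by 0.58. *Thbs4* and *Ccn2*, above 0 at both stages, had smaller values at E18.5, with differences of −1.59 for *Thbs4* and −0.80 for *Ccn2*. The member spots of both stages were chosen by the same ratio but stand at different absolute ratios and in different surroundings, and what these differences come from was not tested.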

How the results depend on the processing

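At E18.5 the counts of genes higher and lower (773 and 971) were 1733 and 2028 with the plain top 15% against all other muscle spots, 168 and 197 among spots at or above the median muscle score, 164 and 373 with DESeq2, 7591 and 144 when scaled to the 9 muscle genes, and 379 and 938 with the 5 control sections in 1 fit. Scaling to the muscle genes moves the median of all genes by 0.42 at E18.5 and 0.38 at E14.5, so single values under it are given relative to the median, while its calls test the change before the median is taken off. Without the replicate block, which pairs the sums of an embryo, edgeR called 0 and 0 genes at E18.5 (532 and 902 at an unadjusted p under 0.05) and 276 and 138 at E14.5. Leaving out 1 section gave 40 to 98 higher and 115 to 286 lower genes at E18.5, in a fit in which the lone section is assumed to vary like those at E14.5, and 575 to 1203 and 473 to 1048 at E14.5 (873 and 840 with all). Without control 2, 4 of the 12 largest increases and 11 of the 12 largest decreases were still called, and without control 1, 9 and 12. At E14.5 the counts were 18 and 8 among spots at or above the median muscle score, 27 and 14 when ranked by *Myh3* alone, 422 and 374 with DESeq2 and 6549 and 162 when scaled to the muscle genes, and 1311 genes were lower with the plain top 15%. At E14.5 *Csrp3* was called only when scaled to the muscle genes, as higher before the median is taken off (−0.14 relative to the median), and was above 0, without a call, with the plain top 15% (0.10), among spots at or above the median muscle score (0.26) and when ranked by *Myh3* alone (0.31), and *Peg10* was not called among spots at or above the median muscle score (−0.0398), when ranked by *Myh3* alone (−0.0258), when scaled to the muscle genes (−0.32) and without the block (−0.30). *Csrp3* at E18.5 ranged from 0.73 to 1.15 over all alternatives, *Peg10* from 0.60 to 1.08 and *Myh2* from 0.61 to 0.97. Directions turned for *Cthrc1* (−0.006), *Msln* (−0.55), *Krt7* (−0.28), *Myl3* (0.35) and *Mybpc1* (0.023) among spots at or above the median muscle score, for *Msln* (−0.34) and *Krt7* (−0.50) when ranked by *Myh3* alone, and for *Etv5* (−0.24), *Uchl1* (−0.16) and *Ccn2* (−0.35) against all other muscle spots. Of these, *Myl3*, *Ccn2*, and *Msln* and *Krt7* when ranked by *Myh3* alone, were called in the turned direction. The cause was not tested. With members as 10% or 20% of muscle spots, the share of member neighbors was 53.0% or 47.3% in control 1 and 58.5% or 53.9% in control 2, and 45.0% and 44.8% when ranked by *Myh3* alone. *Myh2* did not pass the filter on low counts in the E14.5 fit. Depth limits genes of low level, since the members hold 4320187 and 3895752 UMIs against 49162395 and 40824585 in the other spots.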
